A study of Homo sapiens with 4 samples.

Results

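Glycogen metabolism was examined through 10 genes: the synthesis genes GYS1, GBE1 and UGP2, the phosphohexomutase genes PGM1, PGM2 and PGM2L1, the phosphorylase genes PYGL and PYGB, and the phosphatase-targeting genes PPP1R3C and PPP1R3B. They are 10 of 22465 genes with a probeset of their own on the array. Each of the 10 had exactly 1 such probeset, and all 10 had a mean log2 signal over the 4 arrays at or above the cutoff of 4.035, the median over all probesets, as did 14418 genes in all. PPP1R3C and PGM2L1 were picked because they differed between induced and control cells in both lines, and PYGL because it differed between the lines. Those differences are therefore given as descriptions, without a test. The other 7 were taken for their place in the pathway.

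Expression was measured on 4 Affymetrix arrays from the cultured breast cancer lines SUM159 and MDA-MB-231, both of the triple-negative type. All cells of both lines carried a lentiviral construct from which miR-100 is expressed under a drug of the tetracycline type, so the control arrays also come from transduced cells. Each line was kept for 1 week without the drug (control) or with it (induced), which gives 1 array per line and state and no replicates. The labels name the drug as doxycycline or as tetracycline, and the series' design text has SUM149 where the sample labels have SUM159. The SUM159 cells grew in Ham's F12 with insulin and hydrocortisone, and the MDA-MB-231 cells in DMEM without either. No array came from cells given the drug without the construct, so the drug and miR-100 cannot be told apart here, and neither can cell line and medium. The estrogen and progesterone receptor genes ESR1 and PGR lay below the cutoff on all 4 arrays, at 2.98 to 3.68, while VIM, the mesenchymal filament gene vimentin, lay at 15.20 to 16.23. The receptor gene ERBB2 had no probeset of its own, so the triple-negative type was not checked in full. The MIR100 probeset stood at 6.56 in control and 18.18 in induced SUM159 cells, and at 8.11 and 17.29 in MDA-MB-231. This probeset does not separate mature miR-100 from the transcript of the construct.

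Glycogen is the branched store of glucose in animal cells. Glucose 6-phosphate is turned into glucose 1-phosphate by phosphoglucomutase and activated to UDP-glucose. Glycogen synthase then adds it to the growing chain, and the branching enzyme introduces branch points. Glycogen phosphorylase releases glucose 1-phosphate again. The balance is set by phosphorylation: kinases inactivate the synthase and activate the phosphorylase, and protein phosphatase 1 does the reverse when a targeting subunit holds it on the glycogen particle. Some cancer cells build up glycogen in low oxygen and draw on it when glucose runs short.

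The sequence of the induced microRNA is shown first, with the other mature human sequences in the RefSeq table (GRCh38.p14) that share its seed. Capitals mark the seed, bases 2 to 8.
hsa-miR-100-5p: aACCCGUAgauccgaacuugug
hsa-miR-99a-5p: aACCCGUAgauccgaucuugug
hsa-miR-99b-5p: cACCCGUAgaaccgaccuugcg
The miR-100-5p sequence lies on the minus strand at chr11:122152275-122152296. These 3 microRNAs have the same 7-base seed and differ outside it. Sites for this seed in the transcripts of the 10 genes were not analysed here.

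Promoters were read from RefSeq (GRCh38.p14) on each gene's own strand, 250 bases before to 50 after its start, for the 3 genes the results turn on. Capitals mark matches, on either strand, to the E-box (CACGTG), the GC box (GGGCGG), the CCAAT box (CCAAT), the TATA box (TATAAA), the cyclic AMP response element (TGACGTCA) or the AP-1 site (TGANTCA).
PPP1R3C: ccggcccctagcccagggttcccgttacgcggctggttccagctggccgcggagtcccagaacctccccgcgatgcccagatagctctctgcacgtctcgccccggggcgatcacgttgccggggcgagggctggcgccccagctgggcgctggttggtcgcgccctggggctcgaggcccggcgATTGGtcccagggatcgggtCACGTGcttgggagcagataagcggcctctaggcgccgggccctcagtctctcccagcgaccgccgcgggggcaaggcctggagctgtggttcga
PGM2L1: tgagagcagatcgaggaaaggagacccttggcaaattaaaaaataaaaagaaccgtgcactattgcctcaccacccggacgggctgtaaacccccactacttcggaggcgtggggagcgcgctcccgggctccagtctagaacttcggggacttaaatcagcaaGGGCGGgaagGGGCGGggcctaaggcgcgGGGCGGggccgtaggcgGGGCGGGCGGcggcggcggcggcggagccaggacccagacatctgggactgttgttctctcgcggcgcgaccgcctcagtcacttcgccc
PYGL: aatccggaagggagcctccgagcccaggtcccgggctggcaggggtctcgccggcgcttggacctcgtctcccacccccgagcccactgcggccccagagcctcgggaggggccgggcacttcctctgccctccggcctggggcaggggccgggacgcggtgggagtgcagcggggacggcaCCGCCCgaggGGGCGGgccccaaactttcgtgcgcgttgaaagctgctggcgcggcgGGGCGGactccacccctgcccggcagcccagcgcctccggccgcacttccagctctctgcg
These windows are chr10:91633022-91633321, chr11:74398384-74398683 and chr14:50944434-50944733, all on the minus strand. The PPP1R3C window held 1 E-box, beginning at position -45 from the start, and 1 inverted CCAAT box at -65. Of 35116 promoter windows of the same length, 7.26% held an E-box and 34.6% a CCAAT box. PGM2L1 held 5 GC boxes, 2 of which overlap, and PYGL held 3, where 45.0% of all windows held at least 1. Among the members searched, PGM2 also held an E-box and GBE1 a TATA box, the latter at -32. None of the 9 members searched held the cyclic AMP element or the AP-1 site, which 1.85% and 7.71% of all windows held. A match is a stretch of letters and no evidence of binding.

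Among the regulators of glycogen storage, PPP1R3C was past 1.5-fold (0.585 on the log2 scale) lower after induction in both lines, alone among the 10 members. It encodes PTG, the targeting subunit that brings protein phosphatase 1 to glycogen, where it activates the synthase. Its log2 signal was 10.29 in control and 8.89 in induced SUM159 cells, and 5.44 and 4.65 in control and induced MDA-MB-231 cells. Both induced arrays lay below the control array of the same line, and both MDA-MB-231 arrays lay far below both SUM159 arrays. The difference, induced minus control, was -1.40 log2 units in SUM159, 2.64-fold lower, and -0.79 in MDA-MB-231, 1.73-fold lower. From the lowest, these differences ranked 27th in SUM159 and 25th in MDA-MB-231 among 14418 genes. PPP1R3C was picked for these differences, so the ranks describe it and are no test. The induced MDA-MB-231 array was 0.62 log2 units above the signal cutoff and its control 1.41 above it. Whether nearness to the cutoff limited the fall in MDA-MB-231 was not tested. Each array measured a whole culture, so fewer expressing cells and less RNA per cell cannot be told apart.

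PPP1R3B encodes a related targeting subunit, GL, best known from liver. Its signal was 5.23 and 5.20 in control and induced SUM159 cells and 5.72 and 5.62 in MDA-MB-231. The differences of -0.03 and -0.10 were smaller than 0.19 and 0.18, the spread of differences (an SD from the median absolute deviation) among probesets below the signal cutoff in the same lines. That spread serves as a stand-in for a replicate error, which these data do not give. Over all kept genes the spread was larger, 0.25 in SUM159 and 0.21 in MDA-MB-231.

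PGM2L1 was the only one of the 10 members past 1.5-fold higher after induction in both lines. It encodes the enzyme that makes glucose 1,6-bisphosphate, a cofactor of phosphoglucomutase, through which it is counted with the glycogen genes. Its signal was 6.82 in control and 8.29 in induced SUM159 cells, and 7.72 and 8.43 in MDA-MB-231. Both induced arrays lay above both control arrays. The difference was 1.47 log2 units in SUM159, 2.77-fold, and 0.71 in MDA-MB-231, 1.64-fold. Counted from the highest, it ranked 28th and 94th, which again describes a gene picked for these differences. The lines were 0.90 log2 units apart in the control state and 0.14 apart after induction.

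The other mutases differed less. PGM1, the phosphoglucomutase that interconverts glucose 6-phosphate and glucose 1-phosphate, stood at 8.40 and 8.68 in control and induced SUM159 cells and at 8.32 and 8.19 in MDA-MB-231. PGM2, which acts mainly on pentose phosphates, stood at 11.73 and 12.29 in SUM159 and at 11.38 and 11.40 in MDA-MB-231. The induced SUM159 array was thus the highest of the 4 for both genes. The PGM2 difference of 0.56 in SUM159 lay just short of 1.5-fold, and it was 0.44 after quantile normalization.

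GYS1, the glycogen synthase of muscle and most other tissues, went opposite ways in the lines. Its signal was 8.82 in control and 9.51 in induced SUM159 cells, a difference of 0.69 or 1.61-fold. In MDA-MB-231 it was 8.53 in control and 8.12 in induced cells, a difference of -0.41. MDA-MB-231 minus SUM159 was -0.29 on the control arrays and -1.39 on the induced arrays. The response in MDA-MB-231 minus that in SUM159 was -1.10 log2 units, a gap larger than that of 98.2% of kept genes. With 1 array per state the difference between the responses could not be tested.

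The enzymes on either side of the synthase differed by less than 1.5-fold. GBE1, the branching enzyme, stood at 10.39 and 10.43 in control and induced SUM159 cells and at 9.29 and 9.59 in MDA-MB-231. UGP2, which makes UDP-glucose, stood at 8.63 and 8.71 in SUM159 and at 8.91 and 9.09 in MDA-MB-231. The SUM159 differences of both genes, 0.04 and 0.08, lay within the spread of low-signal probesets. In MDA-MB-231 the GBE1 difference of 0.30 was 1.69 times that line's spread, and the UGP2 difference of 0.18 was 1.01 times it.

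The phosphorylases differed by less than 1.5-fold with induction. PYGB, the brain form of glycogen phosphorylase, which many tumours express, stood at 12.29 and 12.38 in control and induced SUM159 cells and at 11.90 and 11.68 in MDA-MB-231. PYGL, the liver form, stood at 12.30 and 12.64 in control and induced MDA-MB-231 cells, a difference of 0.34. In SUM159 it stood at 4.10 and 3.92, at the signal cutoff, where a fall may register only in part. The difference of -0.18 there lay within the spread of low-signal probesets, as did the SUM159 difference of PYGB, 0.09. In MDA-MB-231 the differences of 0.34 for PYGL and -0.22 for PYGB were larger than that line's spread.

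**Figure D1:**
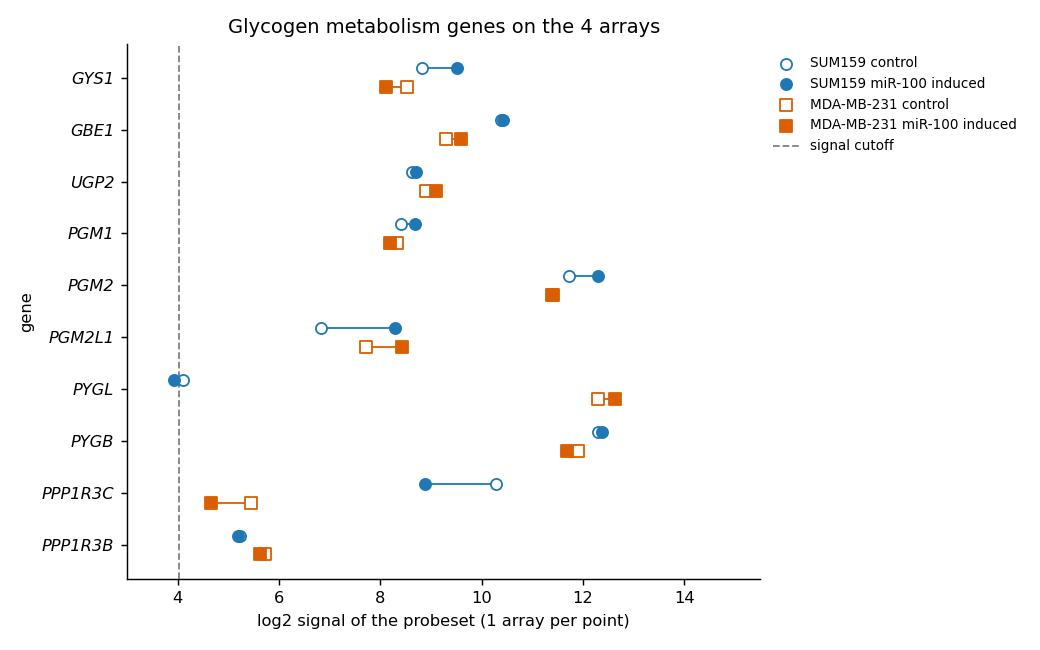
Log2 signal (horizontal axis) of the 10 genes (vertical axis) on the 4 arrays, 1 point per array, with a line joining control (open) and induced (filled) cells of each line and a dashed line at the signal cutoff of 4.035. PPP1R3C moves left and PGM2L1 right in both lines, GYS1 moves right in SUM159 and left in MDA-MB-231, and PYGL lies at the cutoff in SUM159 and above 12 in MDA-MB-231.

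In SUM159, 2 of the 10 genes (PGM2L1 and GYS1) were past 1.5-fold higher and 1 (PPP1R3C) past it lower. Of all kept genes, 3.95% were past 1.5-fold higher and 3.0% lower in this line. In MDA-MB-231, 1 gene was past 1.5-fold higher and 1 lower, against 1.69% and 0.784% of all kept genes. In both lines at once, 0.153% of kept genes were past it higher and 0.0832% lower. PGM2L1 and PPP1R3C were picked for being among them, so nothing is read from these counts. Over the 10 genes the median SUM159 difference was 0.09 and the median MDA-MB-231 difference -0.04, beside 0.00 and 0.01 over all kept genes. The signs were the same in both lines for 6 genes and opposite for 4, where 48.9% of all kept genes had the same sign and 47.2% opposite signs, the rest having a difference of 0 in at least one line. Quantile normalization turned the sign of PYGB (0.09 to -0.03) and GBE1 (0.04 to -0.04) in SUM159 and of PGM2 (0.02 to -0.04) in MDA-MB-231, so those directions are not settled.

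**Figure D2:**
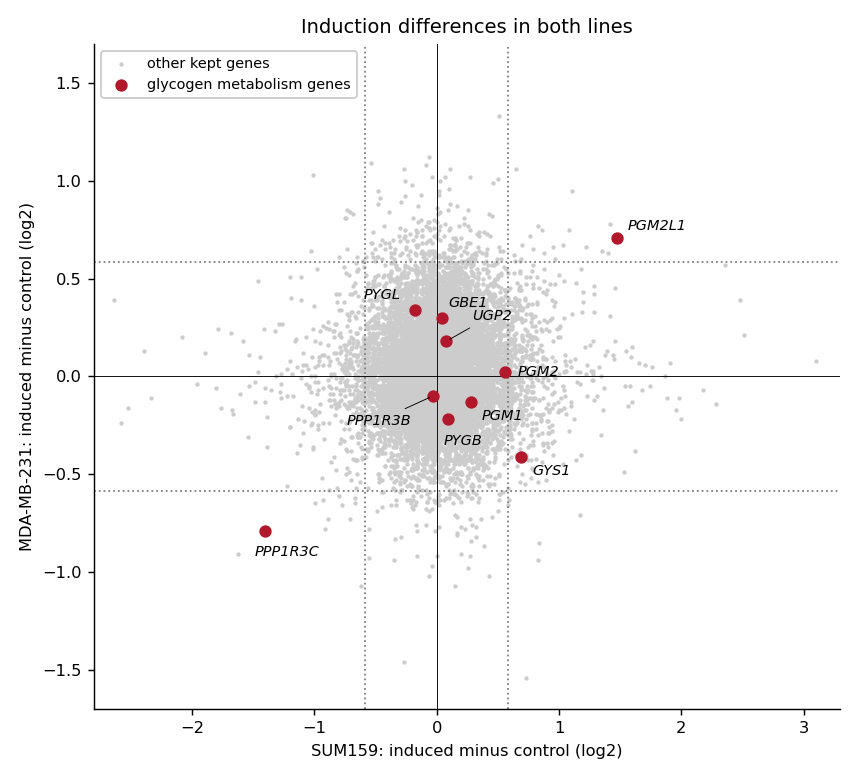
Induced minus control (log2) in SUM159 (horizontal axis) and MDA-MB-231 (vertical axis) for the 10 genes (red) and all other kept genes (grey, MIR100 lying outside the axes), with dotted lines at 1.5-fold. PPP1R3C lies past the lines at lower left and PGM2L1 at upper right, GYS1 is past 1.5-fold in SUM159 alone, and the other 7 lie between the lines.

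Over both lines, limma was fitted to all kept genes with cell line as a block. The 8 members not picked for this contrast had mean differences between -0.07 (PPP1R3B and PYGB) and 0.29 (PGM2). The mean over the 2 lines was 0.29 ± 0.18 for PGM2, with a limma adjusted p of 0.918. It was 0.14 ± 0.31 for GYS1, with a limma adjusted p of 0.965. Here and below, ± gives the SE from limma, whose variance is moderated over all kept genes. It is not the SE of a gene's own values. None of these 8 passed an adjusted p of 0.05, as 0.0% of 14418 genes did. At an unadjusted p under 0.05, limma had 373 genes higher and 183 lower, and none of the 8 was among them. The fit leaves 1 residual degree of freedom, which holds how differently the lines responded, so a lack of calls does not show a lack of change.

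The largest difference among the members lay between the cell lines. PYGL signal was 8.20 log2 units higher in MDA-MB-231 than in SUM159 on the control arrays and 8.72 higher on the induced arrays. Its SUM159 level was at the signal cutoff, so the difference is a lower bound. Taking for each SUM159 array the higher of its own signal and the cutoff, PYGL was at least 338-fold higher in MDA-MB-231. PYGB, the close paralog of PYGL, had signals of 11.68 to 12.38 on the same arrays, so both lines had signal for at least 1 phosphorylase gene. The muscle phosphorylase gene PYGM lay below the cutoff on all 4 arrays, at 3.75 to 3.90.

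PPP1R3C went the other way. MDA-MB-231 minus SUM159 was -4.85 log2 units on the control arrays, 28.8-fold lower, and -4.24 on the induced arrays, 18.9-fold lower. In limma with treatment as a block, the mean difference over the 2 states was -4.55 ± 0.20 (moderated SE), with an adjusted p of 0.00230. The induced SUM159 array, at 8.89, was still above the control MDA-MB-231 array, at 5.44. The shift with induction was thus smaller than the distance between the lines.

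Of the 9 members not picked for this contrast, 4 passed an adjusted p of 0.05, 3 lower and 1 higher in MDA-MB-231. That is 44.4%, beside 44.6% of all kept genes (23.8% higher and 20.8% lower), so it is no result about these genes. The 9 include PPP1R3C and PGM2L1, which were picked for induction differences that enter the error of this fit. Beside PPP1R3C, GBE1 was lower in MDA-MB-231, at a mean difference of -0.97 ± 0.13 log2 units (limma adjusted p = 0.0124). PYGB was also lower, at -0.55 ± 0.14 (limma adjusted p = 0.0496), and PPP1R3B was higher, at 0.46 ± 0.12 (limma adjusted p = 0.0481). The calls of PYGB and PPP1R3B lay close to the threshold. The call was lost for PYGB with an intensity trend and with no signal filter, and for PPP1R3B after quantile normalization and with no filter, with limma adjusted p from 0.0530 to 0.0745. All 10 genes kept the direction of the line difference from the control to the induced pair of arrays, 6 lower and 4 higher in MDA-MB-231.

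GYS1 and PGM2, which were not called, had mean differences of -0.84 ± 0.31 and -0.62 ± 0.18 (limma adjusted p = 0.110 and 0.0672). The error in this fit comes from the difference in response between the lines, -1.10 for GYS1 and -0.54 for PGM2, and not from replicates. For both genes the line gap was wider on induced arrays, at -1.39 and -0.89, than on control arrays, at -0.29 and -0.35. PGM2 passed under 3 of 5 alternatives and GYS1 under 1, the fit without the block. The other members tested, UGP2, PGM1 and PGM2L1, did not pass in limma, with adjusted p from 0.101 to 0.230.

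**Figure D3:**
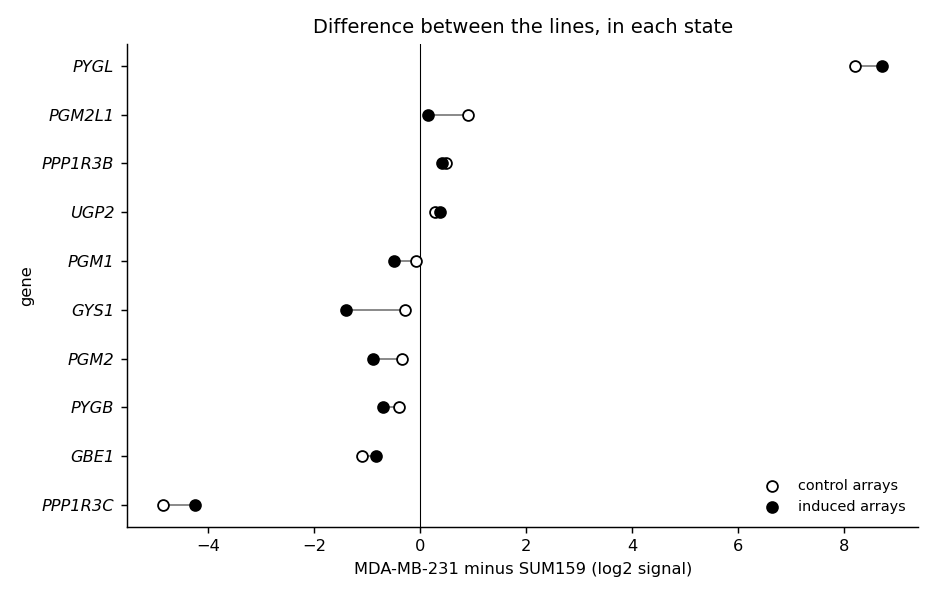
MDA-MB-231 minus SUM159 in log2 signal (horizontal axis) for each of the 10 genes (vertical axis), on the control arrays (open) and on the induced arrays (filled). PYGL lies at 8.20 and 8.72 and PPP1R3C at -4.85 and -4.24, while the other 8 genes lie between -1.39 and 0.90.

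The wider pathway was followed through 51 other genes in 8 lists, of which 45 had a probeset of their own and 38 were kept. In SUM159, 3 of the 38 were past 1.5-fold higher and 1 lower, and none (0) was in MDA-MB-231. The shares of all kept genes were 3.95% higher and 3.0% lower in SUM159, and 1.69% and 0.784% in MDA-MB-231. The SUM159 median difference was 0.00 and the MDA-MB-231 median -0.05, close to the medians of all kept genes. The limma fit over both lines called 0 of the 38, and 3 (SLC2A3, PPP1CC and GSK3B) had an unadjusted p under 0.05, as did 3.86% of all kept genes.

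Glucose uptake and phosphorylation held the highest of these differences. SLC2A3, the high-affinity glucose transporter GLUT3, stood at 10.95 in control and 12.15 in induced SUM159 cells and at 9.76 and 10.14 in MDA-MB-231, differences of 1.20 and 0.38. SLC2A1, which encodes GLUT1, stood at 11.28 and 11.04 in SUM159 and at 13.00 and 12.82 in MDA-MB-231. The hexokinase genes HK1 and HK2, whose products trap glucose as glucose 6-phosphate, had SUM159 differences of 0.43 and 0.60 and MDA-MB-231 differences of -0.22 and -0.25. Both were thus positive in SUM159 and negative in MDA-MB-231, as was GYS1. These signs were shared by 13 of the 38 genes, 3 of the 10 members and 3273 of 14418 kept genes. Quantile normalization turned the SUM159 sign of 7 of the 38 genes and 2 of the 10 members, so these counts depend on the scaling. HK1, HK2 and GYS1 kept their signs. After quantile normalization the SUM159 difference of HK2 fell short of 1.5-fold, at 0.56. Over the 8 genes of glucose phosphate supply and release, the SUM159 median was -0.04 and the MDA-MB-231 median -0.24.

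Among the genes for kinases of glycogen synthase and their subunits, GSK3B, a gene for glycogen synthase kinase 3, had the lowest difference in each line. Its signal was 12.16 in control and 11.52 in induced SUM159 cells, and 11.15 and 10.86 in MDA-MB-231, differences of -0.64 and -0.29. The sister gene GSK3A had differences of 0.07 and -0.20. The AMP-activated kinase gene PRKAA1 had a difference of 0.19 in SUM159, and of 0.26 in MDA-MB-231 cells. The 10 kept genes of this list, which include the regulatory subunit genes PRKAB1, PRKAB2, PRKAG1 and PRKAG2, had medians of 0.01 and 0.02.

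The catalytic subunit genes of protein phosphatase 1 did not share a direction. PPP1CC had differences of 0.61 and 0.26, PPP1CB of -0.44 and 0.19, and PPP1CA of 0.06 and -0.22, each in SUM159 and then MDA-MB-231. The SUM159 value of PPP1CC was 0.44 after quantile normalization, short of 1.5-fold. The other targeting subunit genes that were kept, PPP1R3D, PPP1R3E and PPP1R3F, had SUM159 differences between -0.41 and -0.07 and MDA-MB-231 differences between -0.13 and 0.18. PPP1R3F lay near the cutoff in SUM159, at 4.22 and 3.81. The 7 kept genes of the list had medians of -0.07 and 0.09. PPP1R3A, PPP1R3G and NHLRC1, the gene for malin, had mean signals below the cutoff.

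Phosphorylase kinase, which activates glycogen phosphorylase, had 4 of 5 subunit genes kept. PHKA1, an alpha subunit gene, had differences of 0.58 (SUM159) and -0.11 (MDA-MB-231), while PHKB, the beta subunit gene, had differences of -0.40 and 0.15. The medians of the 4 genes were 0.12 and -0.09. GAA, the lysosomal enzyme that degrades glycogen, had differences of -0.21 and -0.26. GYG1 and GYG2, the genes for glycogenin, the primer of glycogen chains, lay between -0.09 and 0.09 in both lines.

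Over 5 kept genes of other UDP-glucose use and of galactose metabolism, the SUM159 median was 0.03 and the MDA-MB-231 median -0.14. UGCG, the glucosylceramide synthase gene, had the highest differences, 0.27 and 0.32. PMM1 was the only kept gene of the other phosphohexomutases, with differences of 0.06 and -0.23.

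**Figure D4:**
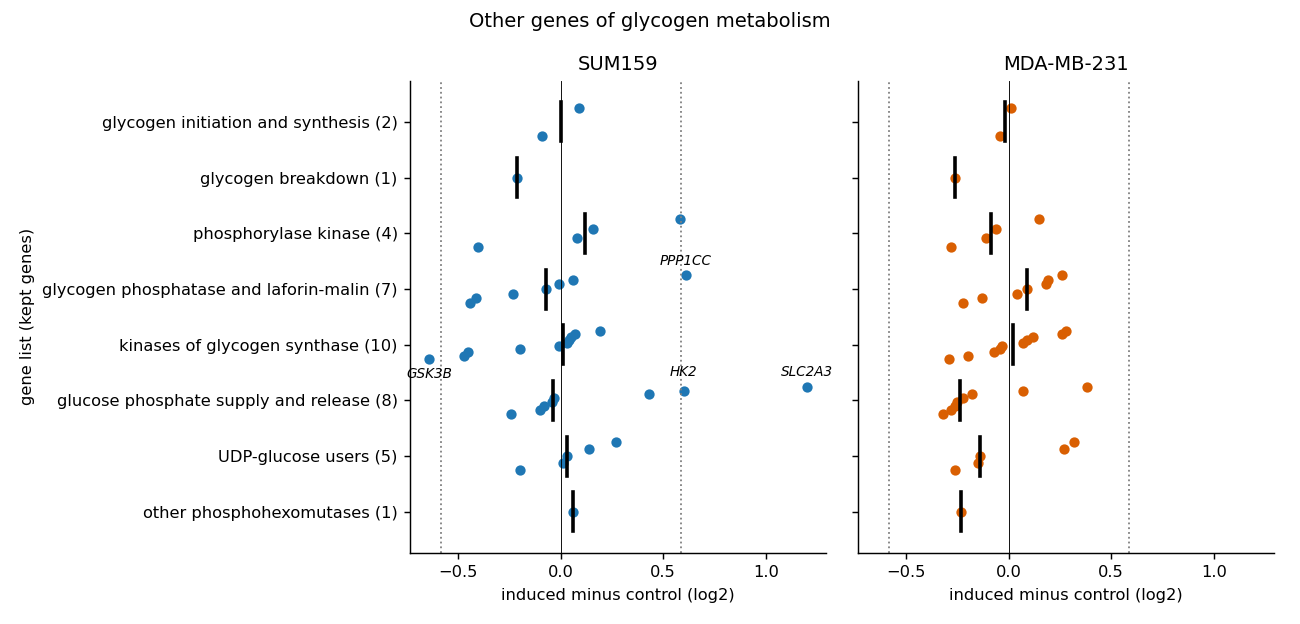
Induced minus control (log2, horizontal axes) of the 38 kept genes of the wider pathway by list (vertical axis, number of genes in brackets), in SUM159 (left) and MDA-MB-231 (right), with a black bar at each list's median and dotted lines at 1.5-fold. SLC2A3, PPP1CC, HK2 and GSK3B lie past 1.5-fold in SUM159, and no gene does in MDA-MB-231.

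Of the 38 genes, limma called 10 as higher and 12 as lower in MDA-MB-231 than in SUM159 at an adjusted p of 0.05, beside 23.8% and 20.8% of all kept genes. Since 44.6% of all kept genes were called either way, a call alone does not set a gene apart. PRKAA2, which encodes the other catalytic subunit of the AMP-activated kinase, lay below the cutoff in SUM159, at 3.94 and 3.98, and at 10.03 and 10.31 in MDA-MB-231. Its sister gene PRKAA1 lay between 12.27 and 12.59 on all 4 arrays. SLC2A1 was higher in MDA-MB-231 by 1.75 ± 0.12 log2 units (limma adjusted p = 0.00367) and HK2 by 1.33 ± 0.25 (limma adjusted p = 0.0251). SLC2A3 was lower, at -1.60 ± 0.25 (limma adjusted p = 0.0156), as were GAA, at -1.83 ± 0.12 (limma adjusted p = 0.00351) and GYG1, at -1.28 ± 0.12 (limma adjusted p = 0.00613). The liver genes ALB, APOA1, GYS2 and G6PC1 and the muscle genes CKM, PYGM and MYH2 had mean signals below the cutoff, and the highest single value among them was 4.04, of G6PC1.

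The kept genes with the pattern nearest to each picked member were found by distance in log2 units. For PPP1R3C, over the 2 induction differences, these were ATP6AP1 of the vacuolar ATPase (-1.62 and -0.91, distance 0.25), the stress cytokine gene GDF15 (-1.22 and -0.56, distance 0.29) and PLXDC2 (-1.39 and -0.36, distance 0.43). For PGM2L1 they were a probeset with the symbol NDUFB2 (1.42 and 0.78, distance 0.09), the membrane-curvature gene FNBP1L (1.40 and 0.63, distance 0.11) and the immunoglobulin segment IGHD3-22 (1.35 and 0.64, distance 0.14), the last near the cutoff in control cells at 3.95 and 4.34. For PYGL, over the 4 centred signals, they were the transporter gene SLC43A3 (distance 0.43), the matrix metalloproteinase gene MMP14 (0.43) and the Wnt antagonist gene DKK1 (0.52). These 3 stood between 3.95 and 5.77 in SUM159 and between 12.39 and 14.49 in MDA-MB-231.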

How the data were processed

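The 4 arrays, 1 for each line and state, were labelled by their titles. The values deposited by the authors are log2 signals, 1 for each probeset on each array, from 1.54 to 19.86, with array medians of 4.00 to 4.07. The submitters' processing notes name Affymetrix Expression Console and Transcriptome Analysis Console. Their versions, and how signals were summarised and normalized, are not given in the sources used, so a shift shared by most genes could have been removed before deposit. Values were used as deposited.

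The platform annotation gave 1 symbol to 23781 of 70523 probesets, and only these were used. The brightest probeset stood for a gene, and genes at or above 4.035 on average were kept. Within a line there was no test, and differences past 1.5-fold were counted. Over lines and between lines, limma 3.58.1 (R 4.3.3; lmFit and eBayes, two-sided, Benjamini-Hochberg over 14418 genes) was fitted with the other factor as a block. The procedure was run on simulated data with known changes and a spread shared by all genes. That run does not bear on the calls made here. The labels name no separate cultures, so p-values measure the spread between these arrays, which may be technical. The members, pathway lists, markers, tests and most alternatives were chosen with earlier results of these data known. Genes named beyond the members came from those lists, from MIR100 as the check of the induction, and from the 3 nearest patterns of PPP1R3C, PGM2L1 and PYGL by Euclidean distance. Listed genes with no probeset of their own were not analysed here. Promoter and microRNA sequences and genome positions come from RefSeq tables (GRCh38.p14). The number of arrays limits the precision.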

Additional observations from a re-analysis of the deposited data

Results flagged for a closer look

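Among the members and the wider pathway, 4 genes went opposite ways in the lines by more than the spread of low-signal probesets in each. They are 4 of 48 genes, or 8.33%, beside 9.5% of all kept genes under the same rule. GYS1 had a response in MDA-MB-231 minus that in SUM159 of -1.10 log2 units, from 0.69 in SUM159 and -0.41 in MDA-MB-231. HK2 had -0.85, from 0.60 and -0.25. HK1 had -0.65, from 0.43 and -0.22. PPP1CB had 0.63, from -0.44 and 0.19, the latter short of the spread over all kept genes in MDA-MB-231, 0.21. With 1 array per line and state, the difference between the responses was not tested.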

How the results depend on the processing

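The 20 induction differences of the members moved by at most 0.12 (SUM159) and 0.06 (MDA-MB-231) on the log2 scale under quantile normalization and median centring. The mean of a gene's probesets could not move them, since each member has 1. The members past 1.5-fold stayed the same in number under both scalings and under both other filters. At 2-fold, 1 member was past it higher (PGM2L1) and 1 lower (PPP1R3C) in SUM159, and in MDA-MB-231 0 were higher and 0 lower. At 2-fold the kept genes were 105 higher and 84 lower in SUM159, and 15 higher and 6 lower in MDA-MB-231. With the filter at the 75th percentile, which tests fewer genes and leaves out PPP1R3B, 69 kept genes were lower in MDA-MB-231, against 113. Of the pathway genes past 1.5-fold higher in SUM159, 3 became 1 (SLC2A3) after quantile normalization and 2 after centring. The limma fit over both lines called 0 genes under each alternative run. Between lines, 4 of 44 refits of the tested members lost a call and 4 gained one; the cause was not tested. On the control arrays alone, 6 of 10 line differences moved by more than the low-signal spread. The block for cell line already pairs control and induced arrays within a line. By replicate number, no paired analysis was possible because each group has 1 array. Small differences at low signal, such as those of PYGL in SUM159, are limited by the background of the array.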
